A study of Mus musculus with 3 samples.

Results

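The pigment enzymes and melanosome proteins are 9 genes that were listed by function, although with earlier results of these data known: Tyr, Tyrp1, Dct, Pmel, Oca2, Slc45a2, Gpr143, Mlana and Slc24a5. They were measured in the retinal pigment epithelium (RPE), a sheet of pigmented cells that adjoins the photoreceptor outer segments, of C57BL/6 mice (C57BL/6 J in the methods) aged 2.5 to 3 months. There were 3 arrays of 1 group, described by the submitters as independent biological samples, with no treated, mutant or control animals. Each array was a spotted slide of mouse exonic evidence-based oligonucleotides (MEEBO) read in 1 colour, so the only comparison is between a gene's spot and the negative control spots of the same slide. Mouse spots were assigned to the genes through the accession each carries. That gave 14 spots for 8 of the 9 genes, among 35078 mouse spots and 15597 named genes. The spot of Mlana, mMC012816, carries an accession that the gene table used here does not hold, and it was named through a supplementary list of the study that holds only spots above an intensity limit. Its detection was therefore part of how it was found, and counts are given with it (15 spots, 9 genes) and without it. In such bulk RNA, fewer cells of a type and less RNA per cell cannot be told apart.

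Melanin is made inside melanosomes, organelles related to lysosomes. Tyrosinase starts the pathway by oxidising tyrosine, and its relatives Tyrp1 and Dct act on later intermediates. Pmel forms the fibrils on which melanin is laid down, Oca2, Slc45a2 and Slc24a5 move ions or solutes across organelle membranes, Gpr143 is a receptor of the melanosome that affects melanosome size and number, and Mlana is a membrane protein that helps Pmel mature. In the RPE of mice much of the pigment is laid down before and shortly after birth, and mature cells keep their melanosomes for long.

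The tyrosinase family shares a regulatory element, and its promoters are shown because the family holds detected genes (Tyrp1, Dct) and an undetected one (Tyr). The element, called the M-box, is bound by Mitf, a pigment cell transcription factor. The letters GTCATGTGC were searched on both strands of the RefSeq promoters (GRCm38.p6, 250 bases before to 50 after each gene start). They were found for Tyr, Tyrp1 and Dct, and not for Oca2 and Slc24a5, the other members with an entry. Of all 32851 promoters 95 held them (0.289%). The element is known to be shared by this family, so the matches in Tyr, Tyrp1 and Dct are a description and not a test. The shorter CATGTG lies inside these letters, so the 3 member promoters with a match hold it too. It was in 5 of 5 member promoters and in 14.2% of all. Each sequence below runs 5′ to 3′ on the strand of its gene and ends before the gene start, with the searched letters in capitals. They begin 23 bases before the start of Tyr (chr7:87493513-87493565, minus strand), 48 before that of Tyrp1 (chr4:80834135-80834203, plus strand) and 152 before that of Dct (chr14:118052360-118052428, minus strand).
Tyr: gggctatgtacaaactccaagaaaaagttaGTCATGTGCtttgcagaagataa
Tyrp1: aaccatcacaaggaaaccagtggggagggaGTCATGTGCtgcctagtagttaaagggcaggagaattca
Dct: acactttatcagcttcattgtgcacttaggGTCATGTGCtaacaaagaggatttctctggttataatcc
A match describes these letters and is not evidence of binding. No entry was found for Pmel, Slc45a2, Gpr143 and Mlana.

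Intensities below are the median foreground minus the median local background of a spot, in scanner units, for replicates 1, 2 and 3 in that order. The arrays differed in brightness. The median mouse spot read 32, 26 and 23, the median of the 94 negative controls 13, 12 and 14, and their 95th percentile, which served as the detection threshold, 132.6, 72.4 and 53.9. Some negative controls were bright, up to 1623 on replicate 1. Replicate 3 was scanned in a separate session, which with 1 array could not be tested as a batch, and the image name in its header alone holds the word redip, whose meaning no source states. No spot of the 9 genes was saturated. Slc45a2 mMA035135 was flagged not found on replicate 2, and no other of their spots was flagged on any array. For the test, intensities were background-corrected, put on the log2 scale and quantile-normalized. The level of a spot is its log2 value minus the threshold of its array, given as mean ± SD (n = 3). A spot was called where limma found the level above 0 at an adjusted p under 0.05 over all mouse spots. Levels were not ranked between spots, since each oligonucleotide hybridises differently.

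Of the 15 spots, 8 were called (53.3%), against 25.5% of all mouse spots. Of the 9 genes 7 had a called spot (77.8%), against 39.8% of named genes. Without Mlana the counts were 7 of 14 spots and 6 of 8 genes. Because the genes were listed with earlier results known, these shares are a description. Dct, Tyrp1, Pmel, Oca2, Gpr143, Mlana and Slc24a5 were detected, and Tyr and Slc45a2 were not. The median level was 2.90 over the 15 spots and 1.72 over the 14 named by accession, against -0.74 over all mouse spots. On the deposited scale, 9 of the 15 spots, the called ones and Slc45a2 mMC016337, had a mean over 500, against 24.5% of the spots in that table. Mlana is among these 9, and its brightness was part of how it was found.

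**Figure D1:**
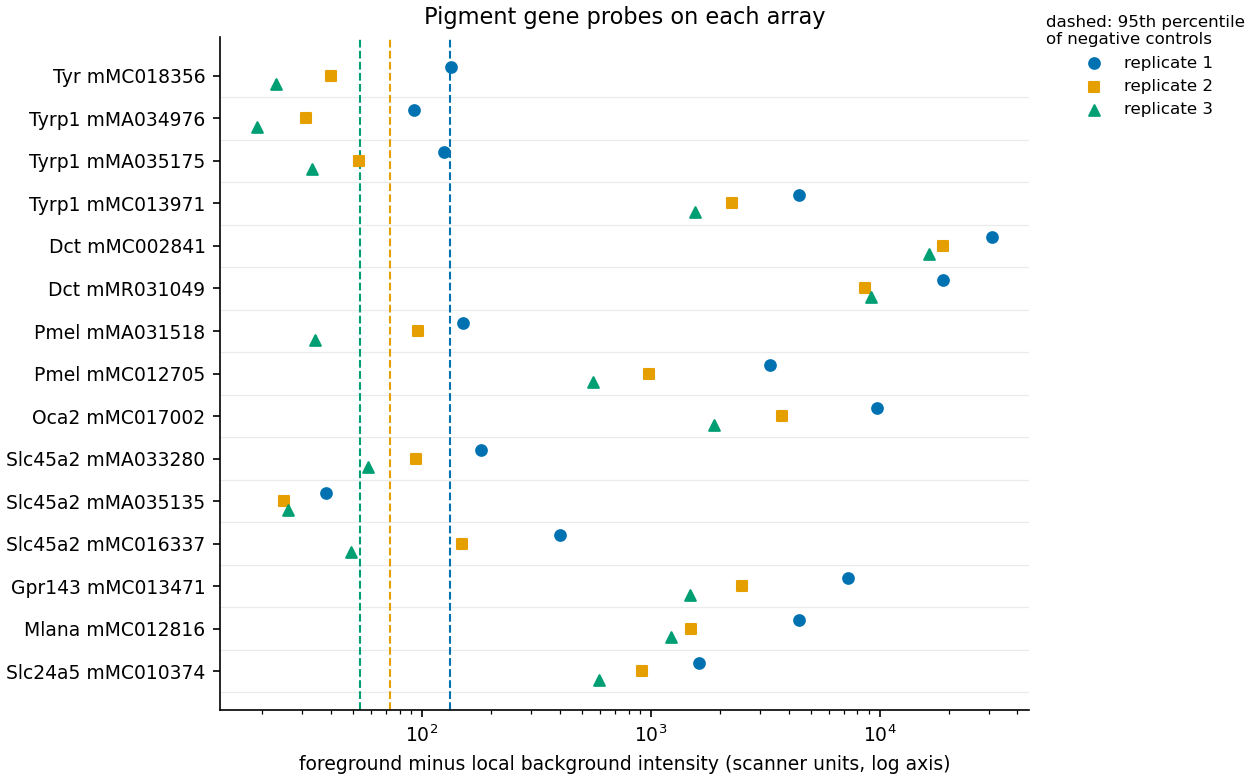
Background-subtracted intensity (scanner units, log axis) of the 15 spots on the 3 arrays. Dashed lines mark the 95th percentile of the negative controls of each array, at 132.6, 72.4 and 53.9. The 8 called spots lie between 559 and 31022, and the others between 19 and 403.

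Among the enzymes, Dct, which converts dopachrome to a carboxylated intermediate of eumelanin, was bright on both of its spots. Spot mMC002841 read 31022, 18869 and 16459, between 234 and 306 times the threshold of its array. Its level was 7.26 ± 0.18 (limma adjusted p = 7.71e-07). Spot mMR031049 read 19011, 8645 and 9175, with a level of 6.38 ± 0.30 (limma adjusted p = 1.27e-06). On each array all 94 negative controls lay below both spots.

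Tyrp1, which stabilises tyrosinase and acts late in eumelanin synthesis, had 3 spots that disagreed. Spot mMC013971 read 4430, 2260 and 1567, above all 94 negative controls on every array, and its level was 4.23 ± 0.10 (limma adjusted p = 1.03e-06). Spots mMA035175 (125, 53 and 33) and mMA034976 (92, 31 and 19) lay below the threshold on all 3 arrays, at -0.25 ± 0.20 and -0.57 ± 0.29. Detection of Tyrp1 thus rested on 1 of 3 spots.

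Tyr, the rate-limiting enzyme of the pathway, was represented by 1 spot, mMC018356. It read 134, 40 and 23. On replicate 1 it was 1.01 times the threshold and on replicates 2 and 3 it was below it, at 0.55 and 0.43 times. Of the 94 negative controls 89, 86 and 81 were dimmer. Its level was -0.39 ± 0.36, and it was not called in any of the 11 alternative settings of the test. A Tyr transcript was not detectable with this spot, which does not show that it was absent.

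Of the structural proteins, Pmel again had spots that disagreed. Spot mMC012705 read 3335, 979 and 559, at least 10.4 times the threshold of its array, and its level was 3.23 ± 0.43 (limma adjusted p = 3.39e-05). Its second spot, mMA031518, read 151, 96 and 34, above the threshold on replicates 1 and 2 and below it on replicate 3, with a level of -0.02 ± 0.35. Mlana read 4425, 1494 and 1224, above all 94 negative controls on each array, at 3.92 ± 0.25 (limma adjusted p = 3.41e-06), with the reservation on its naming given above.

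The transporters and the receptor split as follows. Oca2, a melanosome membrane protein that affects its pH through chloride, read 9706, 3749 and 1894 and was at 4.94 ± 0.35 (limma adjusted p = 3.49e-06). Slc24a5, a potassium-dependent sodium and calcium exchanger, read 1623, 919 and 592, 12.2, 12.7 and 11.0 times the threshold, at 2.90 ± 0.14 (limma adjusted p = 3.60e-06). On replicate 1 it equalled the brightest negative control, and 93 of 94 lay below it. Gpr143, mutated in ocular albinism, read 7295, 2497 and 1481 and was at 4.49 ± 0.31 (limma adjusted p = 3.72e-06). These genes each had 1 spot, and none of their readings was less than 11.0 times the threshold of its array.

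Slc45a2, a transporter needed for the melanosome to stay near neutral pH, lay at the limit of detection. Spot mMC016337 read 403, 149 and 49, which was 3.04, 2.06 and 0.91 times the threshold, so that replicate 3 alone was below it. Its level was 0.55 ± 0.58 (limma adjusted p = 0.108; range over the alternatives 0.00353 to 1). Without replicate 3 it was called at 0.87 (limma adjusted p = 0.00353). It was called in 6 of 11 alternatives, among them no normalization and median scaling, which gave identical values. Spot mMA033280 read 182, 94 and 58, above the threshold on all 3 arrays, at 0.19 ± 0.10 (limma adjusted p = 0.106; range over the alternatives 0.000361 to 1), and was called in 1 of 11 alternatives, the 90th percentile threshold. Spot mMA035135 read 38, 25 and 26, below it on all arrays.

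**Figure D2:**
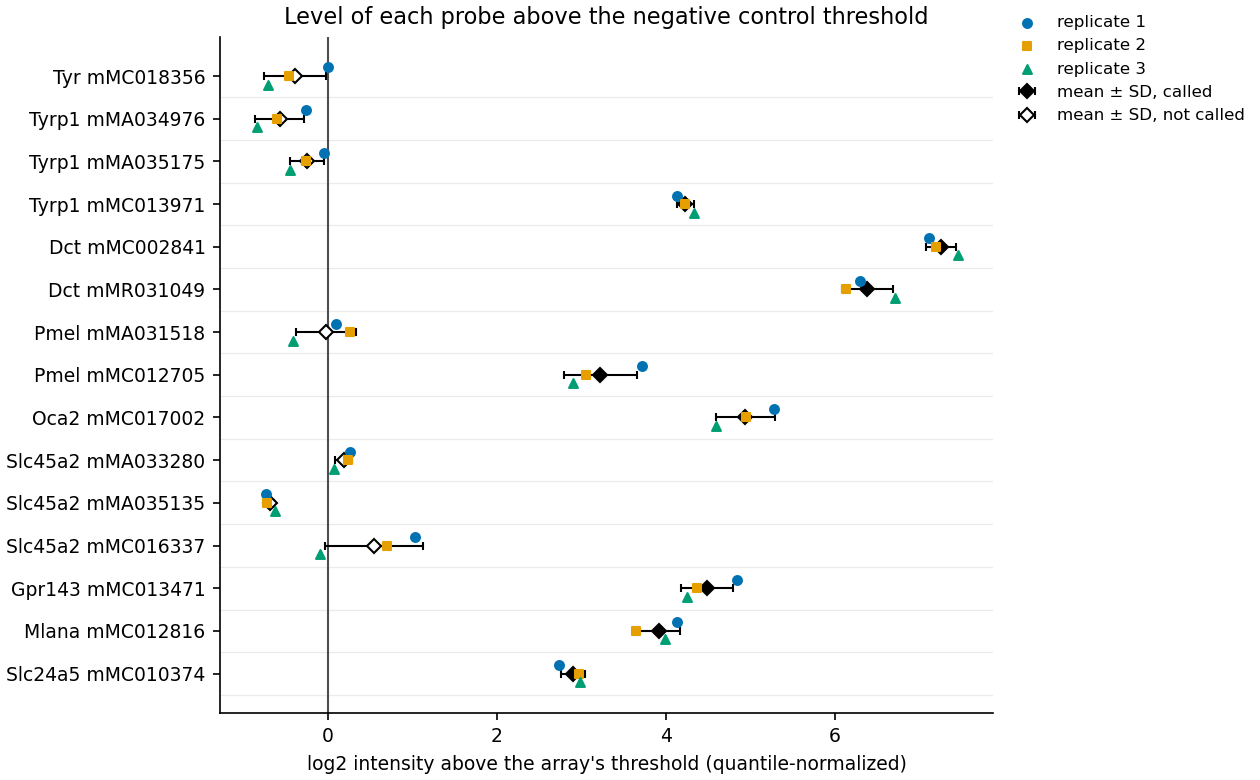
Log2 intensity above the threshold of the array (0 on the horizontal axis) for each spot, with a coloured point per array and a diamond with bars for the mean ± SD (n = 3). Filled diamonds are called spots, with means from 2.90 to 7.26, and open diamonds, from -0.69 to 0.55, are not.

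In Tyrp1 and Pmel the disagreement between spots followed the spot class in the identifier, whereas Slc45a2 was called on neither class. Of the member spots, 7 of 9 of class mMC and 0 of 5 of class mMA were called (limma), against 27.1% and 15.3% of all spots of these classes. Mlana, whose detection was part of how it was found, is among the 7. The meaning of these classes was not stated in any source used. Of the 5 mMA spots only mMA033280 of Slc45a2 had an unadjusted limma p under 0.05 (0.0281). Tyrp1 and Pmel were called on their mMC spot and not on their mMA spots. The same held for 670 of 2175 named genes with spots of both classes, whereas 150 were called on mMA only, 301 on both and 1054 on neither. Whether the mMA spots read other exons of these transcripts was not tested.

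The called spots were also compared between arrays, as log2 deviations from the mean of the spot relative to the median of all called, unsaturated spots. Pmel (mMC012705), Oca2 and Gpr143 were highest on replicate 1, by 0.78, 0.66 and 0.56 over replicate 3 (1.72-, 1.58- and 1.47-fold). Both Dct spots ran the other way, at -0.37 and -0.44, and Tyrp1 and Slc24a5 were at -0.23 and -0.28. Mlana was at 0.10. The directions for Pmel, Oca2, Gpr143 and both Dct spots were the same with median scaling and with the deposited scaling, where Pmel was at 0.99 and 0.91, Oca2 at 0.85 and 0.69, Gpr143 at 0.79 and 0.64, and the Dct spots between -0.75 and -0.43. Both scalings apply 1 factor per array, and the comparison with all called spots removes such a factor. They therefore repeat the comparison without quantile normalization and do not test the scaling. Median scaling left the called spots themselves shifted by 0.68 on replicate 1 and -0.60 on replicate 3, and the deposited scaling by 0.23 and -0.22. With 1 array on each side these differences have no test. Among called spots, 94.9%, 91.9% and 88.2% had a smaller difference than Pmel, Oca2 and Gpr143 with quantile normalization. With median scaling the shares were 97.1%, 95.1% and 93.4%, so these genes lay toward the upper end. The deposited scaling gave lower shares for them than median scaling. For Dct spots mMC002841 and mMR031049 the shares were 21.5% and 17.5% with quantile normalization, and 14.6% and 20.9% with median scaling. The SD of Pmel (0.43) exceeded that of 87.7% of called spots and the SD of Tyrp1 (0.10) that of 14.2%.

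**Figure D3:**
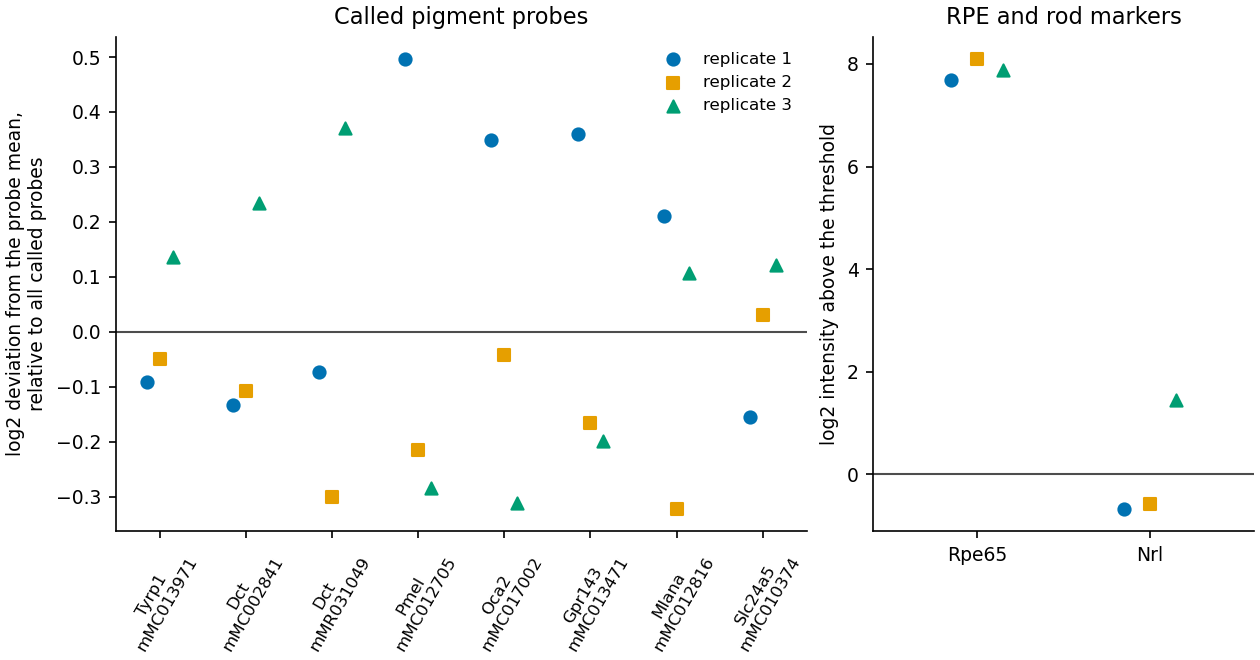
Left, log2 deviation of each called spot from its own mean on the 3 arrays, relative to all called spots (0). Pmel, Oca2, Gpr143 and Mlana are highest on replicate 1 and the Dct spots, Tyrp1 and Slc24a5 on replicate 3. Right, log2 intensity above the threshold of Rpe65 and Nrl, with Nrl above 0 on replicate 3 only.

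Markers of other cells were read on each array. Summed rod and fibroblast markers were highest on replicate 3. The sum of the endothelium and blood markers, nearly all from the globin Hba-a1, changed little. Rod markers had 3, 4 and 6 of 11 genes above the threshold on replicates 1, 2 and 3, where 30.1%, 31.7% and 31.3% of all mouse spots were above it, and their summed intensity on the deposited scale was 5394, 4334 and 24043. The rod transcription factor Nrl was at -0.67, -0.57 and 1.45. In limma, which detected 39.8% of all named genes, 1 of the 11 rod markers was detected, the transducin subunit Gnat1, at 2.72, 2.71 and 4.95. Gnat1 was called on 1 of its 2 spots. RPE markers summed to 732259, 914535 and 757904, with 9 of 10 detected and Best1 not. The sum on replicate 1 is a lower bound, because the spot of Rdh5, a retinol dehydrogenase, was saturated there. Rpe65, which isomerises retinoids for vision, had a level of 7.88 ± 0.20. Of the fibroblast markers 2 of 7 were detected, Dcn (on 1 of its 4 spots) and Pdgfrb, and the list summed to 3883, 2828 and 9438. Most of the sum on replicate 3 was Dcn, which read 1011, 292 and 1388. Of the endothelium and blood markers 1 of 7 was detected, Hba-a1, with sums of 58201, 63162 and 63822 for the list. Hba-a1 read 26483, 17138 and 12461, and no other gene of that list read above 197. The sums therefore do not describe the endothelium. The part of these cells in the differences between arrays was not tested.

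Melanocytes of the choroid, a neural crest pigment cell, use the same enzymes, so their own markers were read as well. Of 7 listed markers 4 had a spot and 1 was detected. Kit, a growth factor receptor, read 257, 149 and 66 and was at 0.50 ± 0.25 (limma adjusted p = 0.0163). The transcription factor Pax3 (-1.0 ± 0.11), the melanocortin receptor Mc1r (-0.82 ± 0.31) and the endothelin receptor Ednrb (-0.54 ± 0.31) were not called. The 4 genes summed to 740, 822 and 641 on the deposited scale. Sox10, Erbb3 and Cdh19 matched no spot. The part of melanocytes in the pigment gene signal was not tested beyond these values.

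Regulators of pigment cells were detected in 3 of 7 cases (42.9%). Mitf, the factor that binds the M-box, was at 5.51 ± 0.23 on the better of its 2 called spots, its partner in RPE specification Otx2 at 5.50 ± 0.28 and Sox9 at 6.39 ± 0.29. Not called were Pax6 (0.36 ± 0.96), which was above the threshold on replicates 2 and 3, Usf1 (0.05 ± 0.39), Tfec (-0.85 ± 0.37), a relative of Mitf, and Lef1 (-0.88 ± 0.19). The share is near that of all named genes.

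Other transporters with a role in pigment were detected in 2 of 5 cases (40%), near the background too. Atp7a, which supplies copper to tyrosinase, was at 4.88 ± 0.28 on the 1 called of its 2 spots. The channel Mcoln1 was at 2.62 ± 0.45. The cystine transporter Slc7a11 (-0.97 ± 0.24), the channel Tpcn2 (-0.62 ± 0.31) and the exchanger Slc24a4 (-0.28 ± 0.25) were not called. Mfsd12 and Trpm1 matched no spot.

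Of the genes that build melanosomes and sort cargo to them, 18 of 25 were detected (72%), against 39.8% of all named genes. The tetraspanin Cd63, which helps sort Pmel, was at 7.04 ± 0.09, the adaptor subunit Ap3d1 at 5.73 ± 0.07, the BLOC-1 subunits Dtnbp1 and Bloc1s1 at 5.18 ± 0.11 and 4.66 ± 0.11, and the melanosome glycoprotein Gpnmb, a relative of Pmel, at 6.16 ± 0.19. Lyst (-1.02 ± 0.13), Kif13a (-0.44 ± 0.32) and Ap3m1 (-0.17 ± 0.09) were not called. Gpnmb was called on 2 of its 4 spots and Bloc1s1 on 2 of 2. Bloc1s2 matched no spot. Of the genes that move melanosomes, 4 of 7 were detected (57.1%, against the same 39.8%), Sytl2 on 1 of its 3 spots. They were Rab27a (7.46 ± 0.09), its effectors Myrip (5.21 ± 0.41) and Sytl2 (2.70 ± 0.21) and the motor Myo7a (1.29 ± 0.33), whereas Mlph (-1.06 ± 0.15) and Myo5a (-0.41 ± 0.24), the linker and motor of melanocytes, and Rab27b (-0.30 ± 0.58) were not called.

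**Figure D4:**
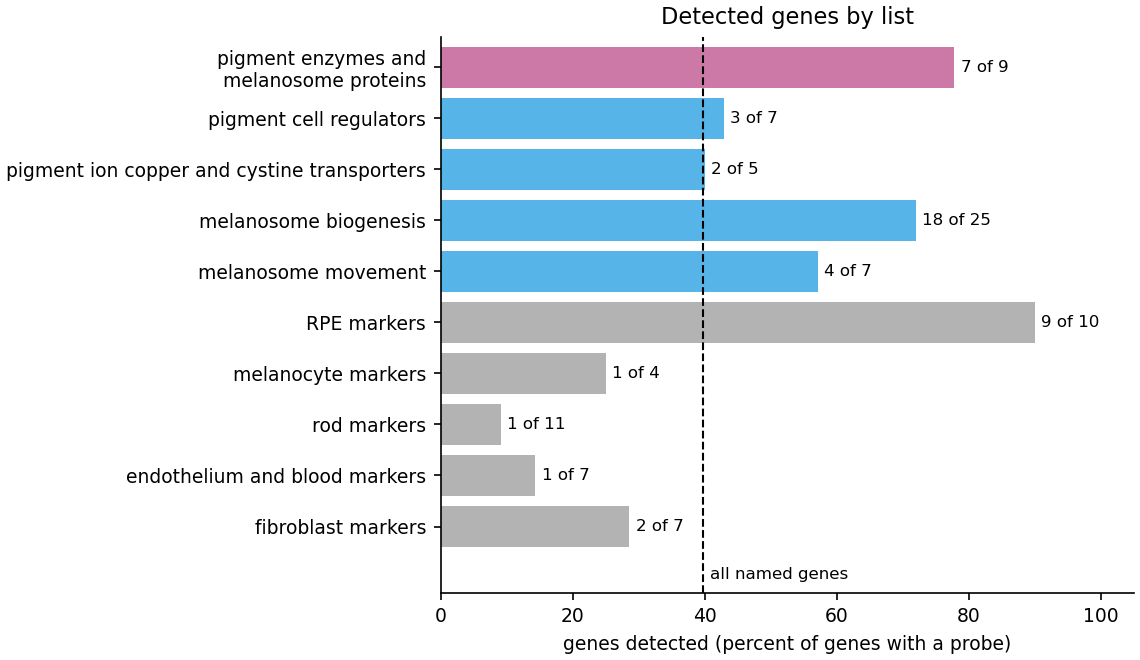
Percent of genes with a spot that were detected in each list, with the counts at the bars and a dashed line at 39.8%, the share of all named genes. The pigment enzymes and melanosome proteins are at 77.8% (75% without Mlana), the melanosome biogenesis genes at 72% and the melanocyte and rod markers at 25% and 9.09%.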

How the data were processed

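RNA from 3 RPE samples was measured, 1 array each. Per the file headers, the authors' exports (GenePix Pro 4.1.1.4) give the median foreground and local background intensity per spot with no normalization, and a flag, a score given by the scanner software. The deposited value table holds intensity normalized by the authors. It equalled the foreground minus background intensity, floored at 1, times 1 factor per array (2.17, 3.64 and 5.05), by a method that no source used here names. Its column medians were 73.8, 98.2 and 116.2, and the scale is otherwise uncentred. All sample columns were used (0 unused).

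Exports were corrected with normexp (offset 50) on all 38880 spots in limma 3.58.1 (R 4.3.3), taken to log2 and quantile-normalized over mouse spots and the 94 spots of class mCN, taken as negative controls, although no source used here says what that class holds. Every call rests on that choice. lmFit and eBayes (intercept only, one-sided) tested the level above the 95th percentile of these controls, with Benjamini-Hochberg adjustment over 35078 mouse spots. No mouse spot was flagged absent. On replicates 1, 2 and 3, 11827, 9910 and 8962 mouse spots were flagged not found, and these were kept. A gene was detected if any spot was called, and outside the 9 genes the spot with the largest statistic is quoted. Precision was limited by having 3 arrays. The p-values reflect only the spread among them, moderated by eBayes with that of all mouse spots, and treat the threshold as known.

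Accessions were named with a RefSeq gene table (GRCm38.p6): 23071 mouse spots had 1 symbol, 0 several and 12007 none. Members and lists were chosen with earlier results of these data known. Named were all spots of the 9 genes, all regulators, transporters and melanocyte markers, and from the biogenesis and movement lists up to 5 detected genes with the largest statistic and up to 3 undetected with the smallest. Of the other marker lists the rule gives counts and sums and names Rpe65 and Nrl outright, whatever their statistics. Best1, Rdh5, Gnat1, Hba-a1, Dcn and Pdgfrb were added after their values were seen. Some markers are not reported here and were left out of the counts and sums. Alternatives were plain subtraction, no normalization or median scaling, other percentiles, a filter on dim spots, a trended robust fit, the deposited table, other detection rules and leaving out each replicate.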

Additional observations from a re-analysis of the deposited data

How the results depend on the processing

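Counts of called member spots (8) stayed between 8 and 12 and of detected genes between 5 and 8 over the alternatives tried, and the 41 genes detected in the other lists between 35 and 56. The member counts include Mlana, whose detection was part of how it was found. The 7 genes detected in the main setting were called in all 11 alternative fits, of which no normalization and median scaling were identical. With more than 50% of a gene's spots required, 5 genes were detected, without Tyrp1 and Pmel. The median member level of 2.90 moved to 3.59 with plain subtraction and with the 90th percentile, to 3.58 with the deposited table and to 2.07 with the 99th percentile. Leaving out 1 replicate gave 2.86 to 2.98.

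Signs changed only for spots near the threshold. With the 90th percentile Tyr was at 0.30, the Tyrp1 spots mMA035175 and mMA034976 at 0.44 and 0.12 and Pmel mMA031518 at 0.67, of which mMA035175 and mMA031518 were called. With the 99th, Slc45a2 mMA033280 and mMC016337 were at -0.64 and -0.28. Pmel mMA031518 was at 0.03 with no normalization or median scaling and between -0.16 and 0.18 when 1 replicate was left out. Slc45a2 mMC016337 was called without normalization, with median scaling (an identical fit), the 90th percentile, the filter, the trended fit and without replicate 3. Over all mouse spots, 8931 were called, and 13548 with the 90th percentile. Bright negative controls limit what lies near the threshold. No paired analysis was possible because there is 1 group.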
